A study of Homo sapiens with 4 samples.

Results

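The mitochondrial ribosomal protein genes are the nuclear genes with MRPL and MRPS symbols, which encode most proteins of the large and small subunits of the mitochondrial ribosome. They were taken from the deposited expression table by biotype and symbol: protein-coding rows named MRPL or MRPS, followed by a number and, in some, a letter from A to C. The rule found 75 of 33478 rows, among 18833 protein-coding ones. MRPS17 has 2 rows, and 1 of the 75 rows fell under the filter of a mean of 1 TPM, so 74 genes were compared among 14038 genes that passed it. MRPL39, MRPL40 and MRPS6 were not analysed here.

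RNA was sequenced in the human liver cancer line MHCC-97H, derived from a hepatocellular carcinoma, with 2 libraries titled SH-NC, a control short hairpin RNA (shRNA) with the genotype given as control, and 2 titled SH-UCK2-B, with the genotype given as UCK2 knockdown. All 4 libraries come from the same line and carry an shRNA. UCK2 encodes uridine-cytidine kinase 2, which phosphorylates uridine and cytidine in pyrimidine salvage, and the design compares transcript levels with and without its targeting. The letter B of both titles is not explained; if it stands for 1 hairpin, what that hairpin does to other transcripts and what loss of UCK2 does cannot be told apart. Whether replicates were grown as separate cultures is not in the labels; p-values then reflect the spread between these libraries alone, which may be technical. The free-text description of control 2 gives the line as MHCC-98H, that of UCK2 shRNA 2 gives the gene as UCK3, and the extraction text speaks of retinas. The libraries are called control 1, control 2, UCK2 shRNA 1 and UCK2 shRNA 2 after their titles.

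The mitochondrial ribosome translates the few messenger RNAs made from mitochondrial DNA, which encode core subunits of the respiratory chain and the ATP synthase. Its RNAs come from the mitochondrial genome, whereas its proteins are encoded in the nucleus, made in the cytosol and imported. Some of these proteins have counterparts in the bacterial ribosome, and others were added in the mitochondrial lineage. Loss of single members of the particle is known to impair assembly of the respiratory chain, on which liver cells depend heavily.

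The targeted gene was checked first. UCK2 measured 135.7 and 93.58 TPM (a relative transcript abundance corrected for length, so that levels of different genes can be set side by side) in control 1 and control 2, against 120.5 and 67.83 in UCK2 shRNA 1 and 2. The groups overlapped, since UCK2 shRNA 1 lay above control 2. The log2 difference, UCK2 shRNA minus control on the log2(TPM + 1) scale used for every difference here, was -0.31 (SE 0.30, 95% interval -1.02 to 0.39, limma adjusted p = 0.64). UCK2 transcript levels therefore did not separate the groups, and directions below are between libraries as labelled. The 4 columns summed to 850379, 850534, 676811 and 643063 TPM over the rows used here, so 15.0%, 14.9%, 32.3% and 35.7% of the fixed total lay outside them. Every comparison is accordingly given for the values as deposited and again after median-ratio scaling, which divides each library by its typical ratio to the mean library (factors 1.19, 1.00, 0.918 and 0.928). Of 15 hepatocyte and hepatoma markers 11 averaged at least 1 TPM, led by KRT8. ALB and HNF4A averaged 23.5 and 28.6 TPM and APOA1 1.4 TPM, while GPC3, EPCAM, APOA2 and APOB stayed under 1 TPM. Of 12 retina markers only OPN1SW reached 1 TPM, with sums of 2.88 to 3.96 TPM over the list in the 4 libraries. PTPRC, CDH5 and the 3 fibroblast markers averaged under 1 TPM, while CD68 averaged 47.1 TPM and PECAM1 21.9 TPM.

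Sequence around the transcription start was a first feature shared by many of these genes that their symbols did not select. RefSeq windows on GRCh38.p14, from 250 bases before to 50 bases after the start, were matched for 65 of the 74 genes. MRPL10 was among the 9 genes without a window. The core of the ETS family (CCGGAAG, searched on both strands), bound by factors such as NRF2/GABP, was found in 27 of 65 windows (41.5%), against 10.7% of 27305 promoters of the table and 19.2% of 9197 promoters of genes tested here. The YY1 core (AAGATGGC, both strands) stood in 20 of 65 (30.8%), against 3.03% and 5.58%. NRF1, a regulator of nuclear genes for mitochondria, has the core TGCGCATG, which was found in 5 of 65 (7.69%), against 2.26% and 3.76%. The SP1 core GGGCGG was found in 38 of 65 (58.5%), against 44.6% and 69.6%, and the TATA box letters TATAAA in 2 of 65 (3.08%), those of MRPL54 and MRPS15, against 12% and 5.49%. The last 2 motifs were also searched on both strands, and matches of different motifs were allowed to overlap. A match describes letters, not binding. The median GC content of the windows was 60%, against 58.3% of all promoters and 65.3% of those of genes tested.

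These arrangements are shown in the following windows, from 100 bases before to 30 bases after the RefSeq start and in the direction of the gene, with the ETS, YY1 and NRF1 cores in capitals on either strand. MRPS34 is shown for its 3 ETS cores in a row, MRPL20 and MRPS18A for an ETS core followed by a YY1 core, MRPL22 for the NRF1 core, MRPL54 and MRPS23 as members with some of the lowest differences, and MRPL42 as the member with the highest scaled difference.
MRPS34 (chr16:1773105-1773234, minus strand): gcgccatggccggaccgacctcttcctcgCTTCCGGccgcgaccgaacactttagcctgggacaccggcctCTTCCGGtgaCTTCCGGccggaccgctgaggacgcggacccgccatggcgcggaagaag
MRPL20 (chr1:1407264-1407393, minus strand): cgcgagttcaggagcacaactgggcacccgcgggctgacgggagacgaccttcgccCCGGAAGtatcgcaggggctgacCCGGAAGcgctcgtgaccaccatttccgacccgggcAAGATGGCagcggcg
MRPS18A (chr6:43687762-43687891, minus strand): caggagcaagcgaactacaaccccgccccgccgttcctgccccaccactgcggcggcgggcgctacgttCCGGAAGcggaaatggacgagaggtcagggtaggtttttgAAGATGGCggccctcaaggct
MRPL22 (chr5:154940973-154941102, plus strand): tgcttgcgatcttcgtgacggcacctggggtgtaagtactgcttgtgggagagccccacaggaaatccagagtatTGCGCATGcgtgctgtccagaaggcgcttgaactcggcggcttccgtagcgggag
MRPL54 (chr19:3762582-3762711, plus strand): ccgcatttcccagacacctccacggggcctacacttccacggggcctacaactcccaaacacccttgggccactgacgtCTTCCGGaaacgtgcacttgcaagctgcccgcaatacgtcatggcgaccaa
MRPS23 (chr17:57850015-57850144, minus strand): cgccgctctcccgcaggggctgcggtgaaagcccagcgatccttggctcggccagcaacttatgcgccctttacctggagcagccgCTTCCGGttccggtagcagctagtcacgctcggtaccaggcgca
MRPL42 (chr12:93467414-93467543, plus strand): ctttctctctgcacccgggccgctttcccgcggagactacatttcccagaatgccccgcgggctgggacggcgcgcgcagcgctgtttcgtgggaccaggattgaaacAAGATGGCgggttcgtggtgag
In MRPL20, MRPS18A and MRPL42 the YY1 core lies just past the start, in the transcribed bases. The same held for 15 of the 65 windows (23.1%), where the core lay on the gene's own strand and began between the 7th and the 36th transcribed base. That placement was found in 1.39% of all promoters and 3.32% of promoters of genes tested. The letters of this core contain ATG and can take in a translation start, which was not checked. Genes with the YY1 core had a median scaled difference of -0.13 and those without it -0.21. With and without the ETS core the medians were -0.19 and -0.20.

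The members covered a wide range of levels. Averaged over the 4 libraries, they ran from 4.87 TPM for MRPS31, a mitochondria-specific small subunit protein, to 423.9 TPM for MRPL12, with a median of 67.9 TPM against 11.8 TPM over all genes tested. MRPL12, the factor-binding stalk protein of the large subunit (chr17:81703357-81707526, plus strand), measured 476.5 and 541.8 TPM in the controls, then 399.3 and 277.8 TPM in the UCK2 shRNA libraries. MRPL24, a large subunit protein near the exit of the peptide tunnel, followed with 415.5 and 460.2 TPM, then 345.0 and 301.8 TPM. MRPL51, a mitochondria-specific large subunit protein, measured 299.2 and 274.6 TPM, then 219.1 and 220.0 TPM. In these 3 genes both controls lay above both UCK2 shRNA libraries in the deposited values. The 10 members with the highest means also held MRPL33, MRPS24, MRPS34, MRPS12, MRPS7, MRPL20 and MRPL23.

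**Figure D1:**
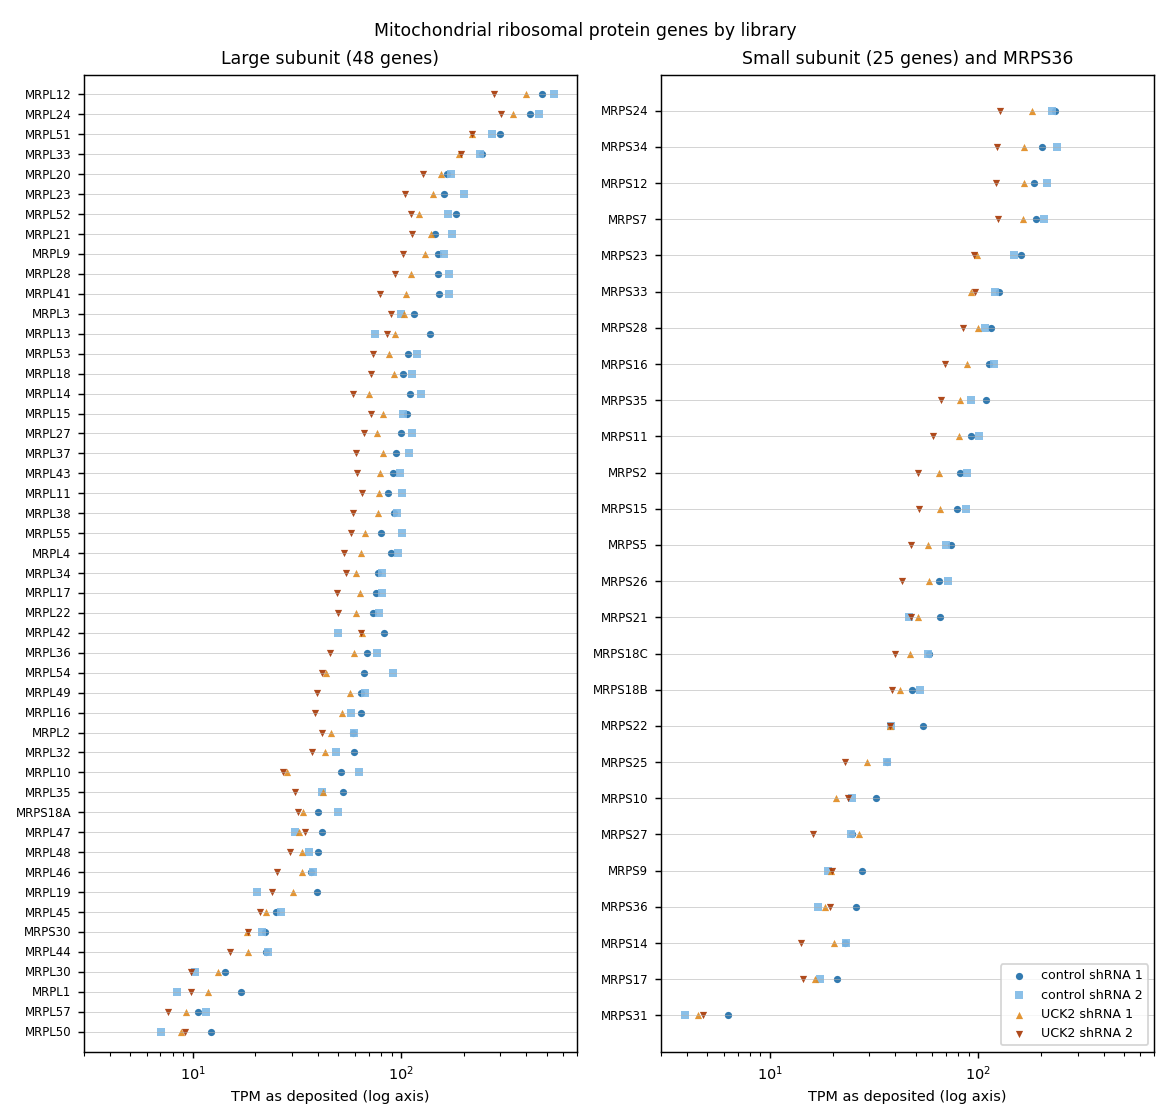
Deposited level of each gene in each library (points; TPM, log axis), large subunit genes and small subunit genes in separate panels, sorted by mean. The genes spread from 4.87 to 423.9 TPM on average, and for 60 of the 74 both UCK2 shRNA libraries lie below both controls.

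The group as a whole was lower in the libraries labelled UCK2 shRNA in the values as deposited, and no single member passed the test. Summed over the members, the controls held 7225 and 7411 TPM and the UCK2 shRNA libraries 5794 and 4815 TPM. The log2 difference was below 0 for 73 of 74 members, against 74.7% of all genes tested, with a median of -0.43 against -0.22 over all genes. Both UCK2 shRNA libraries lay below both controls for 60 members (81.1%; 44.4% of all genes), and above both for 0 (5.46% of all genes). With limma, 0 members and 0 genes in all (0%) had an adjusted p under 0.05, and the smallest among members was 0.294. At an unadjusted p under 0.05, 37 members (50%; 14% of all genes) were lower and 0 were higher. Protein-coding genes averaging at least 10 TPM, nearer to the members in level, had a median of -0.31, with 88.1% below 0. Their groups did not overlap in the lower direction for 62.8%, and 24.7% were lower at an unadjusted p under 0.05. In bulk RNA, fewer cells of a kind and less RNA per cell cannot be told apart.

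Part of that shift was common to the table. After median-ratio scaling, the median over members was -0.20 against -0.01 over all genes and -0.07 over protein-coding genes averaging at least 10 TPM. The scaled difference was below 0 for 61 members, against 50.8% of all genes and 63.7% of these protein-coding genes. Among members it ran from -0.77 for MRPL10 to 0.24 for MRPL42. Groups did not overlap for 14 members in the lower direction (18.9%; 15.5% of all genes) and for 1, MRPL47, in the higher direction (16% of all genes). In the lower direction, the share of members whose groups separated was thus close to that of the table once columns were scaled. In the higher direction it was well below that of the table. With limma, 0 members had an adjusted p under 0.05, against 0.0641% of all genes, and the smallest was 0.673. At an unadjusted p under 0.05, 4 members were lower (5.41%; 1.42% of all genes) and 0 were higher. These 4 were MRPL10, MRPL14, MRPL54 and MRPL41.

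**Figure D2:**
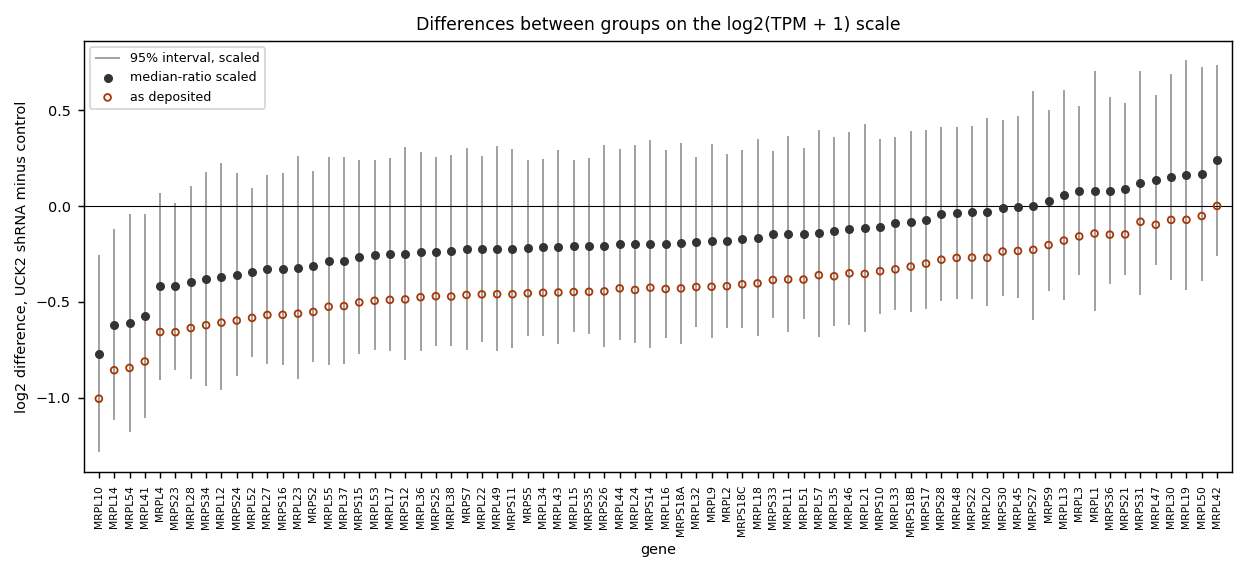
Log2 difference of each gene, UCK2 shRNA minus control, on the log2(TPM + 1) scale (filled points, scaled values with 95% intervals from limma; open points, values as deposited), genes sorted by scaled difference. The scaled values run from -0.77 for MRPL10 to 0.24 for MRPL42, and 61 of 74 lie below 0.

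MRPL10 had the lowest difference of all members. It encodes the protein that holds the L12 stalk onto the large subunit, and its gene lies at chr17:47823272-47831534 on the minus strand of hg38. It measured 51.2 and 62.7 TPM in the controls, against 28.3 and 27.2 TPM in the UCK2 shRNA libraries. Both UCK2 shRNA libraries lay below both controls, at 48.7% of the control mean, and at 56.9% after scaling. The log2 difference was -1.0 (SE 0.19, 95% interval -1.44 to -0.57, limma adjusted p = 0.294) as deposited and -0.77 (SE 0.23, 95% interval -1.28 to -0.26, limma adjusted p = 0.673) after scaling. The selection named MRPL10 with its value in these libraries already known. The partners of MRPL10 in the stalk differed less: the deposited differences were -0.61 for MRPL12 and -0.38 for MRPL11, the other protein of the stalk base, and the scaled ones -0.37 and -0.14, with both groups overlapping after scaling.

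MRPL14, a large subunit protein at the interface with the small subunit and the docking site of the assembly factor MALSU1, measured 110.3 and 124.5 TPM in the controls, then 69.9 and 59.1 TPM (log2 difference -0.86, SE 0.17, limma adjusted p = 0.294). MRPL54, a mitochondria-specific large subunit protein, measured 66.2 and 91.3 TPM, then 43.8 and 41.9 TPM (-0.84, SE 0.20, limma adjusted p = 0.294). MRPL41, also mitochondria-specific, measured 152.0 and 170.1 TPM, then 105.5 and 78.9 TPM (-0.81, SE 0.19, limma adjusted p = 0.294). For these 3 genes the groups separated both as deposited and after scaling, where the differences were -0.62, -0.61 and -0.57. Of the 3, MRPL54 had the widest gap between controls, with control 2 above control 1.

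MRPS23, a mitochondria-specific protein of the small subunit, measured 160.2 and 147.7 TPM in the controls, then 98.9 and 95.4 TPM (-0.66, SE 0.15, limma adjusted p = 0.294). MRPL4, which lines the peptide tunnel, measured 89.2 and 96.3 TPM, then 64.4 and 53.0 TPM (-0.66, SE 0.17). MRPL28, a large subunit protein with a bacterial counterpart, measured 150.2 and 169.8 TPM, then 111.5 and 94.0 TPM (-0.64, SE 0.17). The replicates of MRPS23 lay close together in each group. The groups of all 3 genes were also separate after scaling, with differences of -0.42, -0.42 and -0.40.

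MRPL52, a mitochondria-specific large subunit protein, measured 184.5 and 167.6 TPM in the controls, then 122.6 and 111.8 TPM (-0.58, SE 0.15). MRPL27, whose bacterial counterpart reaches towards the peptidyl transferase centre, measured 100.3 and 112.9 TPM, then 76.7 and 66.6 TPM (-0.57, SE 0.17). MRPS34, a mitochondria-specific small subunit protein, measured 202.4 and 239.2 TPM, then 165.3 and 123.1 TPM (-0.62, SE 0.19). Scaling left the groups of MRPL52 and MRPL27 apart, whereas those of MRPS34 overlapped, with UCK2 shRNA 1 above control 1. The limma adjusted p was 0.294 as deposited for each of these 3 genes and for MRPL4 and MRPL28.

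Several members lay at the other end. MRPL42, a mitochondria-specific large subunit protein, measured 82.8 and 49.8 TPM in the controls, then 64.8 and 63.9 TPM, so both UCK2 shRNA libraries lay between the controls. Its difference was 0.00 as deposited and 0.24 after scaling (SE 0.22, 95% interval -0.26 to 0.74, limma adjusted p = 0.955). MRPL47, a tunnel exit protein, measured 41.5 and 31.0 TPM, then 32.4 and 34.6 TPM, and its scaled difference was 0.14 (SE 0.20). MRPL19 measured 39.4 and 20.4 TPM, then 30.3 and 24.1 TPM (scaled difference 0.16, SE 0.26). In these 3 genes control 1 was the highest library and control 2 the lowest in the deposited values, so the spread between controls exceeded the difference between groups. MRPL50 and MRPL30 had scaled differences of 0.17 and 0.15, with control 1 again above control 2. Reads of near-identical copies could reach MRPL42, MRPL50 and MRPL30, for which GENCODE 29 names 4, 3 and 1 pseudogenes; 32 of the members have at least 1 named pseudogene.

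The named members of the peptide tunnel and the peptidyl transferase centre covered much of this range, from -0.42 for MRPL4 to 0.14 for MRPL47 after scaling. MRPL23, at the tunnel exit, measured 161.6 and 200.8 TPM in the controls, then 142.5 and 104.1 TPM (-0.56 as deposited, SE 0.21; -0.32 scaled). The scaled differences of MRPL2, MRPL3, MRPL16, MRPL22 and MRPL24 ran from -0.22 for MRPL22 to 0.08 for MRPL3. MRPL45, which faces the inner membrane, was at -0.003. After scaling, the groups separated in the lower direction for MRPL4 and MRPL27 and in the higher direction for MRPL47, and overlapped for MRPL2, MRPL3, MRPL16, MRPL22, MRPL23, MRPL24 and MRPL45.

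At the decoding and messenger RNA sites of the small subunit, the 6 genes named for their role had scaled differences from -0.36 to -0.22. MRPS12, of the decoding centre, measured 185.8 and 213.5 TPM in the controls, then 165.8 and 121.4 TPM (-0.49, SE 0.19). MRPS24, of the messenger RNA entry, measured 233.3 and 226.8 TPM, then 180.8 and 127.4 TPM (-0.60, SE 0.20). MRPS7, of the subunit head, measured 188.4 and 206.5 TPM, then 163.9 and 124.4 TPM (-0.46, SE 0.18). In each of the 3, UCK2 shRNA 2 was the lowest library, and after scaling UCK2 shRNA 1 lay above control 1. MRPS2, MRPS5 and MRPS11 had scaled differences of -0.31, -0.22 and -0.22, all with overlapping groups.

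The other abundant genes of the large subunit sat nearer to 0. MRPL33 measured 244.1 and 238.2 TPM in the controls, then 189.7 and 193.7 TPM, and MRPL20 measured 165.7 and 173.5 TPM, then 155.1 and 127.3 TPM. Their scaled differences were -0.09 and -0.03. The proteins of the central protuberance that were named for comparison, MRPL18, MRPL38, MRPL46 and MRPL48, had scaled differences from -0.23 for MRPL38 to -0.04 for MRPL48. MRPL44, which carries a ribonuclease III fold, was at -0.20.

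The 3 paralogs of the bacterial S18 family did not stand apart from each other beyond their errors. MRPS18A, which sits in the large subunit in spite of its name, had a scaled difference of -0.19 (SE 0.23), MRPS18B of -0.08 (SE 0.21) and MRPS18C of -0.17 (SE 0.20). MRPS30, another large subunit protein with a small subunit symbol, was at -0.01. MRPS36, now known as a component of the 2-oxoglutarate dehydrogenase complex and not of the ribosome, measured 25.8 and 17.1 TPM in the controls, then 18.3 and 19.4 TPM, for a scaled difference of 0.08 (SE 0.21). The second MRPS17 row (ENSG00000249773, chr7:55887277-55955239) held 0.18, 0.04, 0.34 and 0.31 TPM and was not tested. It overlaps the main MRPS17 row, which had a scaled difference of -0.07, as well as ZNF713 and GBAS.

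Grouped by subunit and origin, the members gave medians close to one another. The scaled median was -0.19 over 30 large subunit genes with a bacterial counterpart, -0.21 over 18 mitochondria-specific large subunit genes, -0.21 over 16 small subunit genes with a bacterial counterpart and -0.21 over 9 mitochondria-specific small subunit genes. The interval of each single gene was far wider than the gap between these medians. The 4 members at an unadjusted p under 0.05 after scaling, MRPL10, MRPL14, MRPL41 and MRPL54, all belong to the large subunit. That subunit holds 48 of the 74 members.

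As deposited, the median deviation of the members from their own gene means was 0.20 and 0.23 in control 1 and 2, against -0.07 and -0.36 in UCK2 shRNA 1 and 2, so the controls lay close together and the UCK2 shRNA libraries did not. After scaling, the libraries within each group differed as much as the groups did. On the scaled values, that median deviation was -0.03 in control 1 and 0.23 in control 2. It was 0.06 in UCK2 shRNA 1 and -0.25 in UCK2 shRNA 2. Over all genes it rounded to 0.00 in each library, which the scaling itself brings about. Over protein-coding genes averaging at least 10 TPM it was -0.0055, 0.099, -0.0004 and -0.072 in the same order, so they too were highest in control 2 and lowest in UCK2 shRNA 2. Control 2 was the highest library for 53 of 74 members and UCK2 shRNA 2 the lowest for 55. UCK2 shRNA 1 lay below both controls for 15 members (20.3%, against 26.7% of all genes) and below control 1 for 23. UCK2 shRNA 2 lay below both controls for 56 members (75.7%, against 35.7% of all genes). Summed over the hepatocyte and hepatoma markers, TPM as deposited was 3101, 4190, 2721 and 2362 in the same library order. These sums, made up mostly of KRT8 and KRT18, were also highest in control 2 and lowest in UCK2 shRNA 2. Unlike the deviations above they were not scaled, and their part in the result was not tested.

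**Figure D3:**
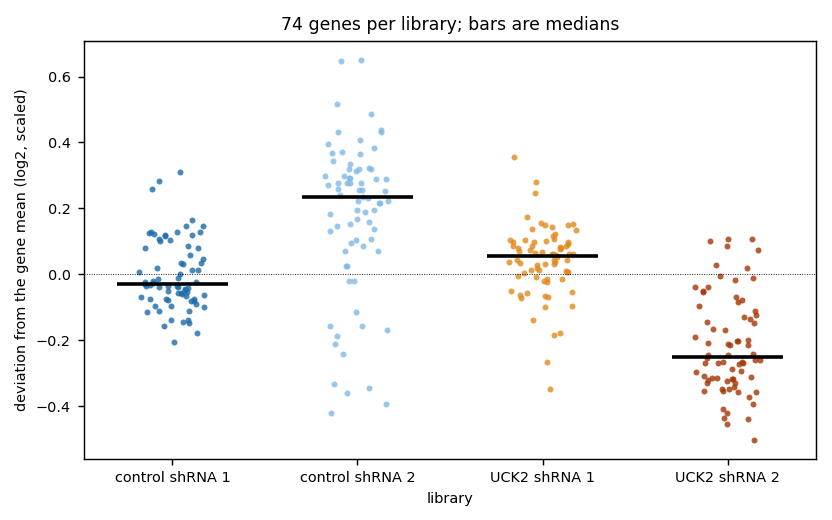
Deviation of each of the 74 genes from its mean over the 4 libraries (points; log2, scaled values), by library, with bars at the medians. The medians are -0.03, 0.23, 0.06 and -0.25 from left to right, so control 1 and UCK2 shRNA 1 lie close together between the other libraries.

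Leaving out 1 library at a time moved the scaled median accordingly. It was -0.04 without UCK2 shRNA 2, with 48 of 74 members below 0, and -0.07 without control 2, with 56 below 0. Without UCK2 shRNA 1 it was -0.35 and without control 1 it was -0.34. As deposited, the median was -0.28 without UCK2 shRNA 2, -0.58 without UCK2 shRNA 1, -0.42 without control 2 and -0.46 without control 1. Each such fit takes the lone library of a group to vary like those of the other. Without control 1, the deposited differences were -1.15 for MRPL10, -1.07 for MRPL54 and -0.94 for MRPL14. The scaled difference of MRPL10 ran from -1.03 without control 1 to -0.51 without control 2.

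Base composition went along with the differences among members. GC content was read from the longest protein-coding transcript of each gene in GENCODE 29. Across the 74 genes, which share the same 4 libraries and are not independent, the scaled difference was lower at higher GC content (Spearman's rho -0.65, Pearson's r -0.64); with the median GC over all protein-coding transcripts of a gene, a measure added after seeing the data, rho was -0.74. Over 13883 genes tested with a GC value rho was -0.45, and over 7308 protein-coding genes averaging at least 10 TPM it was -0.53. The same measure tracked the gap between replicates: for control 2 minus control 1 rho with GC was 0.74 over the members, and for UCK2 shRNA 2 minus UCK2 shRNA 1 it was -0.43. The 37 members of lower GC content had a scaled median of -0.07, with 24 of 37 below 0, and the 37 of higher GC content one of -0.23, with 37 of 37 below 0. All genes tested, split at the same GC content, had medians of 0.10 and -0.11.

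MRPL42, MRPL50, MRPL19, MRPL30 and MRPL47, the 5 highest members, had GC contents of 38.4%, 35%, 38.3%, 43.2% and 38.0%, at or below the median of 48.8%. MRPL41, among the lowest, had 71.9%, while MRPL10 had 51.8% and MRPS23 had 44.6%, so these 2 lay lower than members of like composition. After a correction of each library for GC content, chosen after seeing the data, the median of the scaled values was -0.19 against -0.04 over all genes, with 71 of 74 members below 0. MRPL10 then had a difference of -0.77 (limma adjusted p = 0.476). The corrected values had median deviations of -0.01, 0.21, 0.05 and -0.24 by library, and groups that did not overlap for 17 members in the lower direction (23%, against 19% of all genes). The part of base composition in the differences was not tested beyond this correction.

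**Figure D4:**
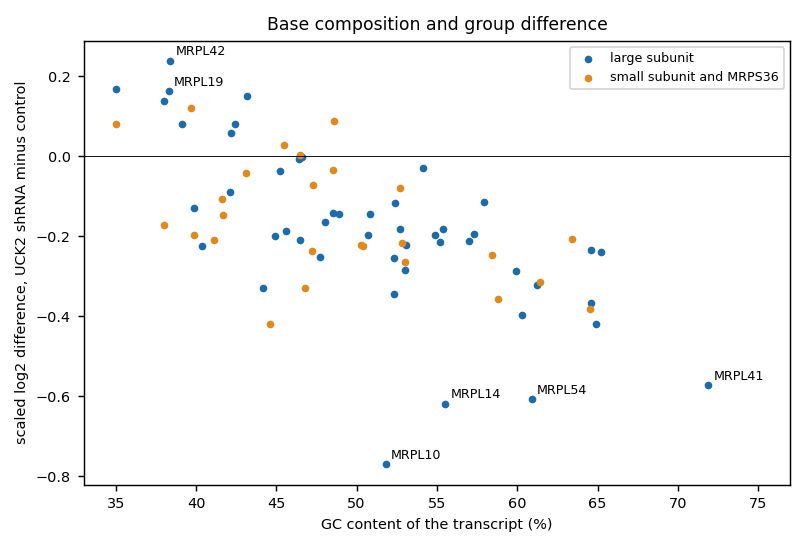
Scaled log2 difference of each of the 74 genes (UCK2 shRNA minus control) against the GC content of its longest protein-coding transcript in percent, by subunit. Genes of higher GC content have lower differences (rho -0.65), and MRPL10, at 51.8%, lies below the others of like GC content.

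Of the other genes of mitochondrial translation and gene expression, in 5 lists, 0 passed the test. Among the 6 mitoribosome proteins without an MRPL or MRPS symbol, the scaled median was -0.14. DAP3, a small subunit GTP-binding protein and the most abundant of them, measured 303.2 and 278.4 TPM in the controls, then 245.3 and 219.7 TPM. AURKAIP1, also of the small subunit, measured 130.3 and 154.7 TPM, then 108.7 and 85.9 TPM (scaled difference -0.31, SE 0.24). In both genes UCK2 shRNA 2 was the lowest library. Among 28 genes of ribosome assembly and rRNA modification the scaled median was -0.10, with 22 below 0 and ERAL1, which chaperones the small subunit rRNA, lowest at -0.44 (SE 0.23). MALSU1, the assembly factor that docks on MRPL14, was at -0.09 (SE 0.20).

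The factors that act on the ribosome had medians nearer to 0. Over the 14 translation factors that passed the filter, of 15 in the table, the scaled median was 0.02, with 7 below 0. The highest scaled difference of this list was that of MTIF3, a translation initiation factor named here after its values were seen, which measured 18.2 and 9.61 TPM in the controls, then 16.1 and 20.1 TPM. Its groups overlapped as deposited (0.41, SE 0.31) and separated in the higher direction after scaling (0.64, SE 0.26, limma adjusted p = 0.894). TUFM, the elongation factor that brings in aminoacyl-tRNA, measured 194.3 and 219.7 TPM in the controls, then 172.7 and 143.1 TPM (scaled difference -0.15, SE 0.23). TSFM, its exchange factor, was at -0.25 (SE 0.22), and TACO1, an activator of translation of a cytochrome oxidase subunit, at -0.27 (SE 0.24). The 13 genes of mitochondrial transcription and DNA upkeep had a median of 0.05, with POLRMT, the mitochondrial RNA polymerase, at -0.23 (SE 0.20) and SSBP1, the single-stranded DNA binding protein, at 0.05 (SE 0.20). The 17 mitochondrial aminoacyl-tRNA synthetases had a median of -0.05, with WARS2 at -0.28 (SE 0.25) and TARS2 at 0.01 (SE 0.20). The median GC content of these 3 lists was 43.5%, 44.2% and 50.8%. For all 5 lists the limma adjusted p of every gene was above 0.05 under both scalings.

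Set beside the most similar groups, the members were not far from the nuclear-encoded subunits of the respiratory chain. The 72 genes of that list had a median of -0.39 as deposited and -0.15 scaled, with 55 of 72 below 0 after scaling. The 79 cytosolic ribosomal protein genes had medians of -0.32 and -0.08, with 57 of 79 below 0. The median deviations by library for the respiratory chain genes were -0.04, 0.23, 0.04 and -0.20, close to those of the mitochondrial ribosomal protein genes. Those of the cytosolic ribosomal protein genes were -0.10, 0.22, -0.01 and -0.09. Differences between these lists were not tested.

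**Figure D5:**
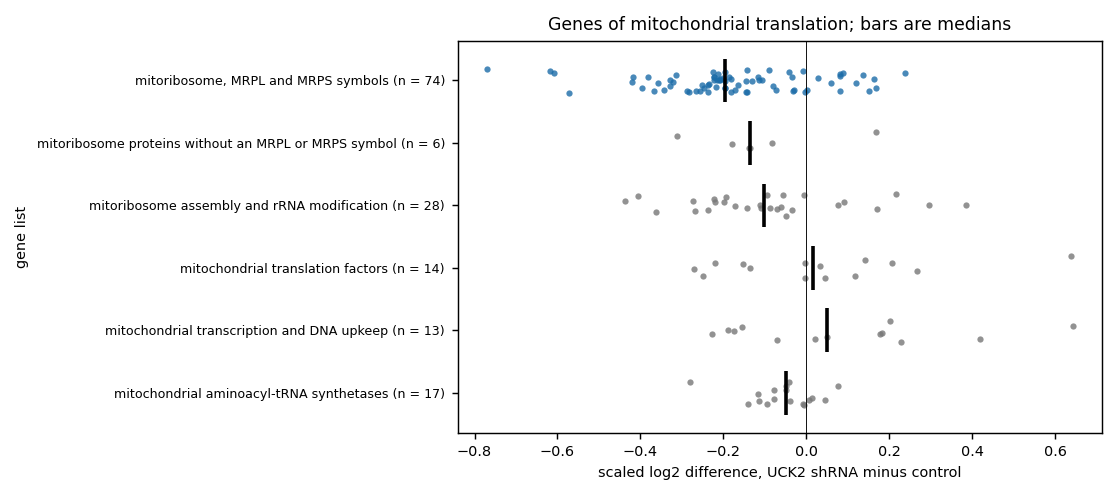
Scaled log2 difference (UCK2 shRNA minus control) of each gene, by list, with bars at the medians. The mitochondrial ribosomal protein genes have a median of -0.20, the translation factors 0.02 and the transcription and DNA upkeep genes 0.05, and the single genes of the lists overlap widely.

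The genomic neighbourhood was a second shared feature. For 29 of 74 members (39.2%) another protein-coding gene of the table started within 1000 bases on the opposite strand and ran the other way, against 2082 of 11624 protein-coding genes tested (17.9%). MRPS11 and MRPL46 are such a pair, with starts 34 bases apart, and their scaled differences were -0.22 and -0.12. MRPS12 pairs with SARS2, a mitochondrial seryl-tRNA synthetase (-0.25 and -0.14), MRPL36 with NDUFS6, a complex I subunit (-0.24 and -0.63), and MRPL47 with NDUFB5, another (0.14 and 0.08). MRPL10 pairs with LRRC46, whose start is 93 bases away and which averaged 1.25 TPM with a scaled difference of -0.01. Of the 28 partners that passed the filter, 17 were below 0 after scaling, against 50.8% of all genes, with a median of -0.12. MRPS11 and MRPL46, which are members themselves, are counted among these partners, and both were below 0. Starts were taken from the table's coordinates.

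Overlap with other genes limits some of these values, because the sources used here do not give the strand setting of the read counting. Of the 74 members 38 overlap another row of the table, and 16 overlap a row on the opposite strand that averaged at least 10 TPM. For 6 of them that row was above the member itself. MRPL49 overlaps FAU at 618 TPM, MRPL32 overlaps PSMA2 at 144.3 TPM, and MRPS14 overlaps CACYBP at 151 TPM. MRPL47 overlaps ACTL6A at 83.2 TPM, and MRPS22 overlaps COPB2 at 86.3 TPM. Levels of these members are uncertain to that extent. MRPL10, MRPL54, MRPL41 and MRPS23 overlap no other row, whereas MRPL14 overlaps TMEM63B at 17.9 TPM.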

How the data were processed

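Per the labels, 4 RNA-seq libraries of MHCC-97H cells were sequenced with paired reads. The authors deposited TPM, a transcript abundance corrected for length, per gene and library. Per the submitters' processing notes, the build was hg38 and the tools were HTSeq, edgeR, DESeq and TopHat2 2.0.14, with no role stated. Strand and read totals are not given in the sources used here, and TPM keeps no depth, so no counting interval is given.

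Libraries were grouped by title, 2 a group. Genes with a mean of at least 1 TPM were kept (14038), and log2(TPM + 1) was fitted with limma 3.58.1 (lmFit, then trended eBayes; R 4.3.3). Two-sided p-values were adjusted by Benjamini-Hochberg across these genes, with calls at 0.05. This scale understates changes of genes at low levels. The fit was checked on simulated data. An exact permutation test of 2 against 2 cannot reach that threshold and was not used. The same fit was run after median-ratio scaling. Members and lists were chosen with earlier results of these data known.

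Members named are MRPL10, the 10 highest by mean TPM, the 10 smallest unadjusted p, the 5 highest and 5 lowest scaled differences, the one under the filter and those with a stated role; of each pathway list the 2 most abundant genes and the 2 with the smallest p could be named. Genes outside this rule, such as the overlapping and divergent neighbours, MRPS31 and MRPS15, were named after their values were seen. GC content came from GENCODE 29 and promoters from RefSeq. Alternatives were other pseudocounts, filters, scalings and variance models, a replicate block, a GC correction (loess) and leaving out each library. Figures were drawn with matplotlib 3.10.9.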

Additional observations from a re-analysis of the deposited data

How the results depend on the processing

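The counts of 0 members called held under the other pseudocounts, filters, variance models and rescalings run, on deposited and scaled values; leaving out 1 library gave 0 to 3 members as deposited. The 3 came from the fit without control 1, which also called genes outside the members. Its lone control has no spread of its own, so nothing is concluded from these calls. TPM gives no depth, so counting precision is unknown. The median over members as deposited was -0.073 with columns rescaled to a common total, against 0.106 over all genes. It was -0.091 when rescaled without the 50 most abundant genes (all genes 0.086) and -0.076 with quantile normalization (all genes -0.029). Median-ratio scaling gave -0.20 (all genes -0.01) and the GC correction -0.26 (all genes -0.075). Members with groups that did not overlap in the lower direction numbered 14 after median-ratio scaling (18.9%; 15.5% of all genes). When 1 library was left out, the number on scaled values ran from 15 to 56. It was 15 without UCK2 shRNA 2 (20.3%; 26.7% of all genes) and 56 without UCK2 shRNA 1 (75.7%; 35.7% of all genes). With fewer libraries, groups separate more easily. With a replicate block, 39 genes and 0 members passed as deposited (MRPL10 adjusted p = 0.0713) and 121 genes and 0 members after scaling. Same-numbered libraries tended only weakly to deviate in opposite directions across genes (correlation -0.21 as deposited). The numbers were not taken as pairs, and this correlation does not show whether libraries were paired. The crossed pairing was also run as a replicate block, chosen after seeing the data. As deposited it called 727 genes and 15 members, MRPL10 among them (-1.0, limma adjusted p = 0.0109). After scaling it called 13 genes and 0 members. The crossed pairs were picked from the same deviations that a block removes. That choice favoured more calls by itself, and nothing is concluded from them. Leaving out 1 library, the difference of MRPL10 ran from -1.15 to -0.86 as deposited, and that of UCK2 from -0.72 to 0.10 as deposited and from -0.49 to 0.34 scaled. UCK2 was at 0.0485 with columns rescaled to a common total, 0.030 without the 50 most abundant genes and 0.059 with quantile normalization. After median-ratio scaling 61 of 74 members were below 0, against 73 as deposited; of the members named by the rule, those that moved from below to above 0 were MRPL3 (0.081), MRPL19 (0.16), MRPL30 (0.15), MRPL47 (0.14), MRPL50 (0.17) and MRPS36 (0.0815). After quantile normalization 51 of 74 were below 0, and those named members were MRPL3 (0.23), MRPL19 (0.18), MRPL20 (0.15), MRPL30 (0.093), MRPL33 (0.076), MRPL45 (0.027), MRPL47 (0.19), MRPL48 (0.023), MRPL50 (0.0865), MRPL51 (0.0385), MRPS18B (0.0055), MRPS30 (0.0031) and MRPS36 (0.087). Leaving out 1 library, deposited differences ran from -0.53 to 0.39 for MRPL19, -0.30 to 0.15 for MRPL30, -0.36 to 0.36 for MRPL42, -0.30 to 0.11 for MRPL47, -0.41 to 0.31 for MRPL50 and -0.43 to 0.14 for MRPS36. The cause was not tested for any of these changes.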
